A study of Danio rerio with 6 samples.

Results

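Transcript levels of genes that mark the absorptive cells of the intestine were compared between zebrafish (Danio rerio) larvae homozygous for an hspd1 knockout and hspd1+/+ larvae of the same line at 5 days post fertilization (dpf). The set was written as 34 symbols of brush border, nutrient transport, lipid and protein-uptake genes. Of these, 29 symbols were found among the 25859 genes counted, and because mep1b, dab2 and lct are each carried by 2 gene identifiers, they gave 32 genes. No gene of the table carried the symbol fabp1b.1, anpepa, anpepb, slc6a19b or alpi.2. All 32 genes passed the filter on low counts and were tested. Symbols are printed as the symbol table gives them, many in the capitals of the human name, and SLC15A1 (ENSDARG00000044528) is the zebrafish peptide transporter gene slc15a1b.

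The knockout group (hspd1-/-) and the control group (hspd1+/+) each hold 3 libraries, and each library was made from 5 pooled larvae. All larvae came from crosses among heterozygous carriers of the F4 generation, in 3 mating sets, and the tip of the tail fin was cut off for genotyping before the bodies were used. RNA came from whole bodies (the labels give the tissue as embryo), so the intestine is a small part of each library, and in such bulk samples fewer cells of a type and less RNA per cell cannot be told apart. The protein made from hspd1 is HSP60, a folding chaperone inside mitochondria. Its own transcript stood at 74.5 ± 7.29 CPM in knockout pools and 129 ± 5.02 CPM in control pools (CPM, counts scaled to a common library size; mean ± SD, n = 3 each), with no overlap. Libraries held 18517874 to 20331675 counts. Nothing in the labels ties a replicate number to a mating, so whether pools share parents is not known. The p-values set the difference between groups against the spread among the 3 pools of each group.

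The zebrafish has no stomach, and ingested food passes straight into the intestinal bulb. Enterocytes there carry a brush border of microvilli that holds peptidases, disaccharidases and phosphatases and the transporters for peptides, sugars, amino acids and phosphate, while cytosolic fatty acid-binding proteins and acyltransferases handle absorbed fat. Farther back lie the lysosome-rich enterocytes, which take up whole proteins from the lumen through the receptor cubilin with its partner amnionless and the adaptor Dab2, and break them down in a large lysosomal vacuole. At this age the yolk is nearly used up and the gut takes over nutrition.

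Of the 32 enterocyte genes, 14 were lower in knockout pools and 0 were higher (edgeR quasi-likelihood test, p adjusted by Benjamini-Hochberg over all genes, threshold 0.05). By the same rule 4.01% of all 21602 genes tested were called, 2.54% lower and 1.47% higher. At an unadjusted p under 0.05, 23 of the 32 were lower and 0 were higher, and DESeq2 and limma-voom also called 0 higher. The share of all tested genes at that unadjusted threshold is not given here, so such counts are descriptions only. The median log2 fold change of the 32 genes was −0.73 (all fold changes are knockout over control), against −0.01 over all tested genes. A log2 fold change below −0.5 was found for 20 of the 32, and for 4.91% of all tested genes. In 17 genes every knockout pool lay below every control pool, which held for 10.6% of all tested genes, and in 0 genes did every knockout pool lie above, against 10.8%. The members were chosen with earlier results of these data known, so the contrasts with all tested genes are descriptions and no test of the set. The 14 were 2 transporters, 3 peptidases, 5 other hydrolases, 1 lipid gene and 3 structure genes, and 0 of the 6 protein-uptake genes passed. Without knockout pool 3, control pool 2 or control pool 3 the number of lower genes was 9 in each case, and 7 of the 14 calls were kept whichever pool was left out.

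**Figure D1:**
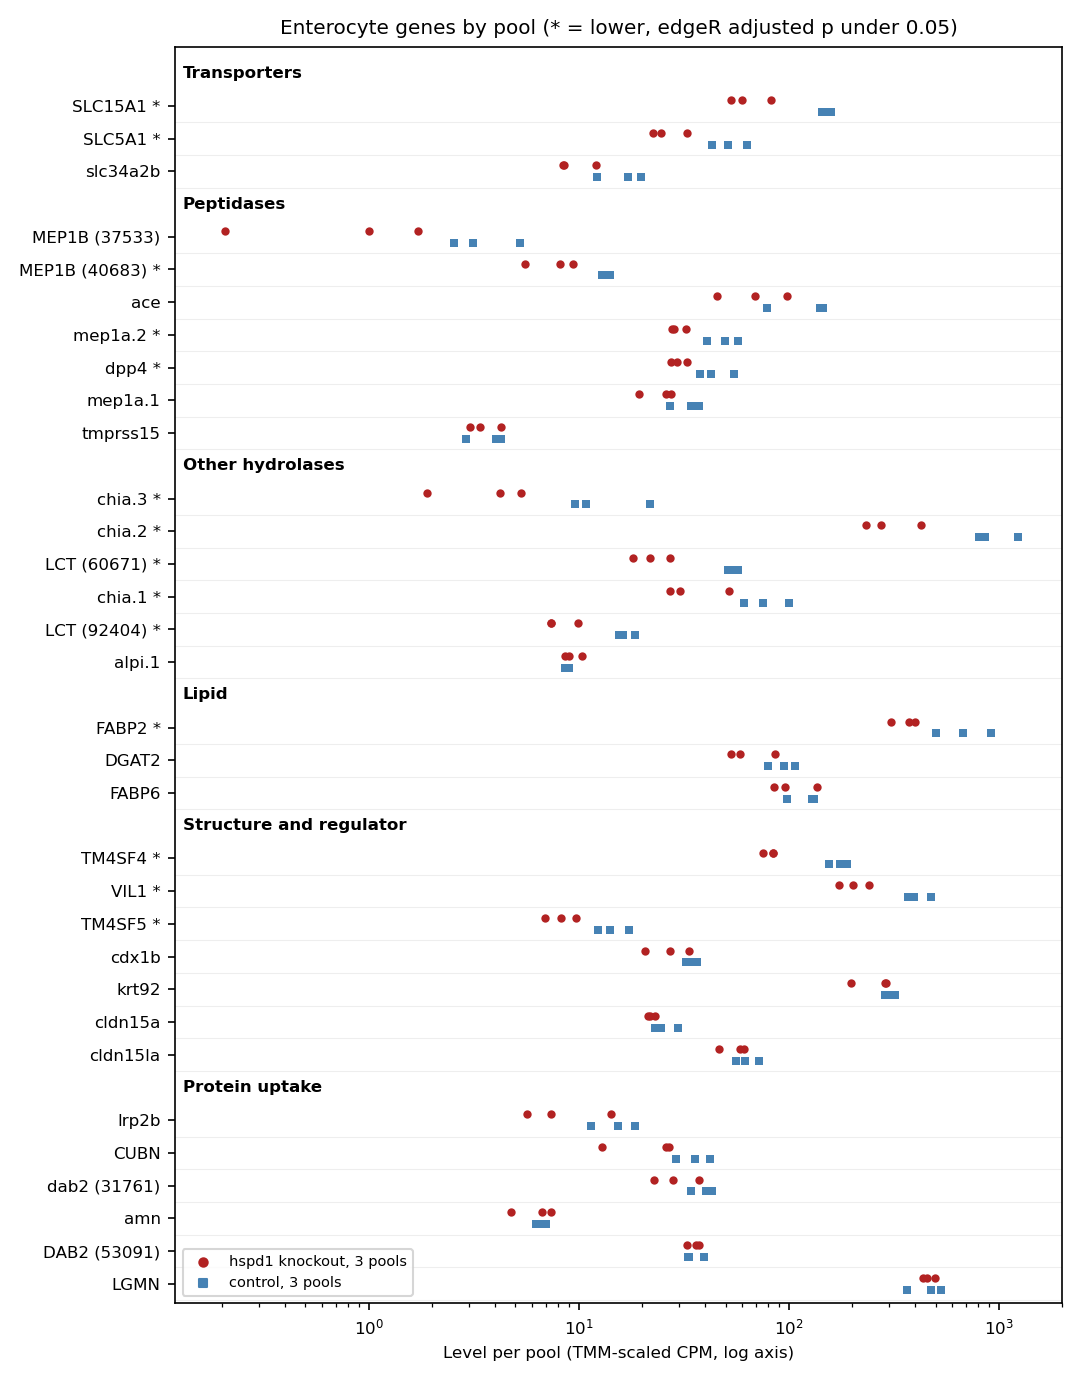
Level of each of the 32 genes in every pool, in TMM-scaled CPM on a log axis, with knockout pools as circles and control pools as squares, grouped by role. Genes with a star passed the test; where a symbol belongs to 2 genes the last digits of the identifier are shown. The circles lie left of all squares for 17 genes, and the protein-uptake rows at the bottom mostly overlap.

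Among the apical transporters, SLC15A1, which takes up di- and tripeptides with protons, was 53.1, 82.6 and 59.6 CPM in knockout pools 1, 2 and 3 and 144, 159 and 154 CPM in control pools 1, 2 and 3. The highest knockout pool was thus far below the lowest control pool. The fall amounted to a log2 fold change of −1.23 (SE 0.15, edgeR adjusted p = 0.000998). SLC5A1, the sodium-glucose cotransporter, stood at 24.7, 32.8 and 22.6 CPM in knockout pools and at 43.0, 63.3 and 51.3 CPM in control pools. It fell by 0.97 on the log2 scale (SE 0.17, edgeR adjusted p = 0.00853), again without overlap. The phosphate cotransporter gene slc34a2b had 8.50, 12.1 and 8.41 CPM in knockout pools against 17.2, 19.8 and 12.2 CPM in control pools. Its groups did not overlap either, but by a narrow gap between knockout pool 2 and control pool 3. Its log2 difference of −0.76 (95% interval −1.20 to −0.32) did not pass with edgeR (adjusted p = 0.0673) and passed with DESeq2 (adjusted p = 0.00835), and in the edgeR fits that left out knockout pool 2 (0.0379) or control pool 3 (0.0262).

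Some further transporter genes share the symbol of a set member or of a symbol that was not found. The second SLC15A1 gene (ENSDARG00000100315) fell to 28.3 ± 2.67 CPM in knockout pools, against 52.1 ± 8.82 CPM in control pools (SD, n = 3 each; edgeR adjusted p = 0.00434). Of 3 genes with the symbol SLC6A19, the neutral amino acid transporter of the brush border, ENSDARG00000018621 had a log2 fold change of −1.25 (SE 0.21, edgeR adjusted p = 0.00644). ENSDARG00000091560 had −0.87 (SE 0.15, edgeR adjusted p = 0.00717), and ENSDARG00000056719 missed the threshold at −0.63 (edgeR adjusted p = 0.0823). In all 3 of them the knockout pools lay below the control pools. Which of them corresponds to slc6a19b is not given by the symbol table, so none was counted in the set.

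Of the 7 peptidase genes 3 fell. mep1a.2, an alpha subunit of the metalloprotease meprin, was 28.5, 32.6 and 27.9 CPM in knockout pools and 41.0, 49.8 and 57.3 CPM in control pools. It fell by 0.73 on the log2 scale (SE 0.13, edgeR adjusted p = 0.0108), and the groups were apart by more than the range of the knockout pools. The related gene mep1a.1 had 25.9, 27.6 and 19.4 CPM in knockout pools against 27.2, 34.4 and 37.4 CPM in control pools. These overlapped, and its log2 difference of −0.44 did not pass (95% interval −0.79 to −0.09, edgeR adjusted p = 0.19). Reads of similar copies such as the meprin genes may be split between them, so the contrast within such a pair is uncertain. mep1a.2 did not pass without control pool 3 (edgeR adjusted p = 0.0522).

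Meprin beta is represented by a pair of genes with the symbol MEP1B. ENSDARG00000040683 was 5.55, 9.35 and 8.14 CPM in knockout pools and 14.1, 13.7 and 12.9 CPM in control pools, a log2 fold change of −0.82 (SE 0.17, edgeR adjusted p = 0.0239). That call was lost without knockout pool 3, control pool 2 or control pool 3 (edgeR adjusted p = 0.0514 to 0.0625). The other gene, ENSDARG00000037533, was sparse, with 0.207, 1.72 and 0.998 CPM in knockout pools and 2.54, 5.24 and 3.12 CPM in control pools. The lowest pool held 4 reads of it. Its log2 difference of −1.89 was the most negative of the set and had a wide 95% interval of −2.94 to −0.83, and it did not pass (edgeR adjusted p = 0.0588). It passed with no filter (edgeR adjusted p = 0.0491), without knockout pool 2 (0.0244) and without control pool 1 (0.039).

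Of the other peptidases, dpp4, a dipeptidyl peptidase, had 29.3, 32.9 and 27.6 CPM in knockout pools against 37.6, 54.8 and 42.7 CPM in control pools. The groups were apart, and its log2 fold change of −0.59 (SE 0.14) was just inside the threshold (edgeR adjusted p = 0.0498). It missed the threshold in all but 1 of the fits that left out a pool (edgeR adjusted p = 0.086 to 0.192 in those), and with limma-voom (0.0593). Upper-quartile scaling, no filter and a filter of 1 CPM in 3 pools also lost the dpp4 call (edgeR adjusted p = 0.0503 to 0.0655). ace, the angiotensin-converting enzyme, varied widely, with 45.4, 69.1 and 97.9 CPM in knockout pools and 141, 78.6 and 145 CPM in control pools. The ranges overlapped, and the log2 difference of −0.78 did not pass (95% interval −1.39 to −0.17, edgeR adjusted p = 0.189). tmprss15, the enteropeptidase that activates pancreatic trypsinogen, was 3.57 ± 0.642 CPM in knockout pools and 3.74 ± 0.744 CPM in control pools, a log2 difference of −0.07 (95% interval −0.52 to 0.39, edgeR adjusted p = 0.914). Of 5 genes with the symbol ANPEP, anpepla or anpeplb, named for aminopeptidase N, 4 were tested; 0 passed with edgeR and 0 had an unadjusted p under 0.05. Their log2 differences ran from −0.25 to 0.23.

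Of the 6 other hydrolases of the brush border and lumen 5 fell, namely 3 chitinases and both lactase genes. chia.2, an acidic chitinase of the kind that splits the chitin of crustacean prey, was 275, 425 and 232 CPM in knockout pools and 864, 1230 and 804 CPM in control pools. The pools did not overlap, and the log2 fold change was −1.64 (SE 0.23, edgeR adjusted p = 0.00217), or 3.11-fold lower in knockout pools. chia.3 had 5.34, 4.23 and 1.89 CPM in knockout pools against 9.64, 21.8 and 10.8 CPM in control pools. It fell by 1.88 on the log2 scale (SE 0.37, edgeR adjusted p = 0.0162), though not without knockout pool 2 (0.0538). chia.1 was 30.4, 52.1 and 27.3 CPM in knockout pools and 61.3, 100.3 and 75.1 CPM in control pools, a log2 fold change of −1.11 (SE 0.24, edgeR adjusted p = 0.0283). The call for chia.1 was lost without knockout pool 1, knockout pool 3, control pool 2 or control pool 3 (edgeR adjusted p = 0.0746 to 0.103), and with DESeq2 (0.0535). Knockout pool 2 was the highest knockout pool for chia.1 and chia.2, and control pool 2 was the highest control pool for all 3 chitinases. The related genes chia.5 and chia.6 had log2 differences of 0.52 and 0.08 and did not pass (edgeR adjusted p = 0.253 and 0.889). chia.5 was higher in every knockout pool, at 3.16, 3.82 and 3.78 CPM against 1.88, 2.62 and 3.02 CPM in control pools. Its 95% interval was 0.06 to 0.98. chia.4 was too sparse to be tested.

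Both genes with the symbol LCT, named for the disaccharidase lactase, fell clearly. ENSDARG00000060671 was 21.8, 27.3 and 18.1 CPM in knockout pools and 51.7, 57.2 and 53.7 CPM in control pools (log2 fold change −1.27, SE 0.14, edgeR adjusted p = 0.000473). ENSDARG00000092404 was 7.41, 9.93 and 7.36 CPM in knockout pools and 18.6, 15.6 and 16.3 CPM in control pools (log2 fold change −1.03, SE 0.15, edgeR adjusted p = 0.00234). Neither gene had overlapping groups, and both passed in every fit that left out a pool. alpi.1, the intestinal alkaline phosphatase, was 10.4, 8.62 and 8.99 CPM in knockout pools and 8.58, 8.95 and 8.74 CPM in control pools. The groups overlapped, with a log2 difference of 0.09 (95% interval −0.19 to 0.38, edgeR adjusted p = 0.778).

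**Figure D2:**
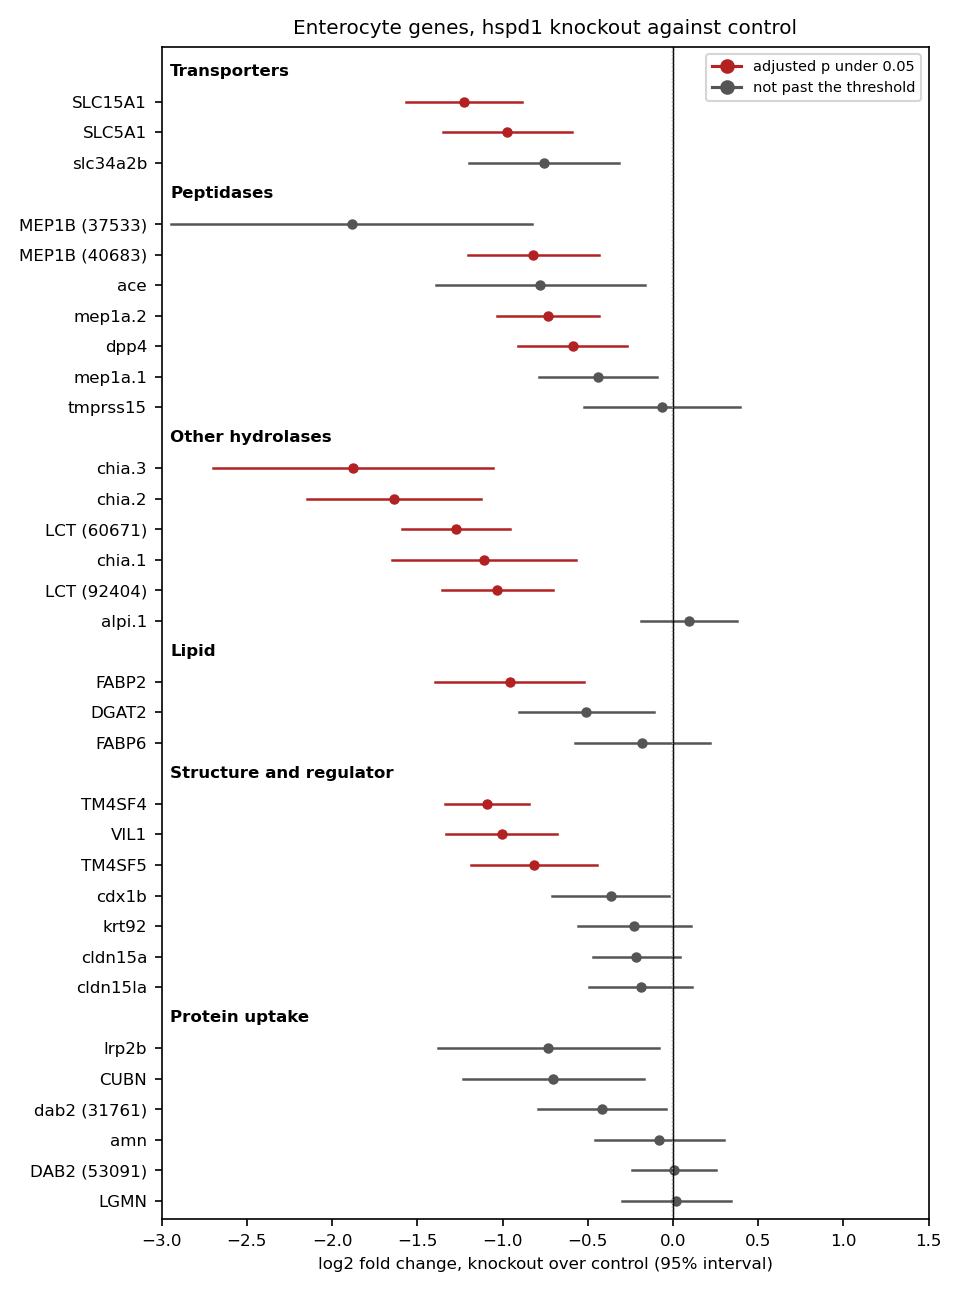
Log2 fold change, knockout over control, of each gene with its 95% interval from the edgeR test, in the same order and grouping as the plot of levels by pool; red marks an adjusted p under 0.05. The intervals of chia.2, chia.3, LCT (ENSDARG00000060671), SLC15A1 and TM4SF4 lie wholly below −0.84. Those of LGMN, amn, tmprss15 and alpi.1 are among the intervals that span 0.

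Among the lipid genes, FABP2, the intestinal fatty acid-binding protein, was 372, 400 and 308 CPM in knockout pools and 503, 920 and 676 CPM in control pools. All knockout pools were lower, and the log2 fold change was −0.96 (SE 0.20, edgeR adjusted p = 0.0205). The control pools were spread widely, and the call was lost in 5 of the 6 fits that left out a pool (edgeR adjusted p = 0.0536 to 0.0747 in those). DGAT2, an acyltransferase of triglyceride synthesis, was 58.6, 85.9 and 53.2 CPM in knockout pools and 79.5, 107 and 95 CPM in control pools, with overlap through knockout pool 2. Its log2 difference of −0.51 (95% interval −0.91 to −0.11) did not pass (edgeR adjusted p = 0.183), but passed without knockout pool 2 (0.0337). FABP6, the ileal bile acid-binding protein found in the more posterior enterocytes, was 85.1, 136 and 96.3 CPM in knockout pools and 97.7, 130 and 132 CPM in control pools. Here the highest value of all was a knockout pool, and the log2 difference was −0.18 (95% interval −0.58 to 0.22, edgeR adjusted p = 0.685). Of the pair of genes with the symbol FABP1, ENSDARG00000059227 fell to 183 ± 36.1 CPM in knockout pools, against 333 ± 78.6 CPM in control pools (log2 fold change −0.86, edgeR adjusted p = 0.0283). That call was kept without control pool 1 but in no other fit that left out a pool (edgeR adjusted p = 0.0521 to 0.114 in those). The other FABP1 gene was too sparse to be tested. The related gene fabp1b.2 was low, at 0.644 ± 0.0262 CPM in knockout pools and 0.497 ± 0.203 CPM in control pools. Its groups overlapped, and its log2 difference of 0.38 did not pass (95% interval −0.45 to 1.21, edgeR adjusted p = 0.683).

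Of the genes of cell structure, VIL1, which codes for villin and bundles the actin of microvilli, was 201, 242 and 174 CPM in knockout pools and 396, 475 and 368 CPM in control pools. The groups were far apart, with a log2 fold change of −1.01 (SE 0.15, edgeR adjusted p = 0.00266). TM4SF4, a membrane protein of the transmembrane 4 L6 family, was 84.6, 84.0 and 75.5 CPM in knockout pools and 156, 190 and 175 CPM in control pools. It had the smallest p of the set, with a log2 fold change of −1.09 (SE 0.11, edgeR adjusted p = 0.000228). Its relative TM4SF5 fell by 0.82 on the log2 scale, to 8.24, 9.67 and 6.88 CPM in knockout pools against 12.3, 17.3 and 14.1 CPM in control pools (SE 0.17, edgeR adjusted p = 0.0191). That call was lost without knockout pool 1, knockout pool 3, control pool 2 or control pool 3 (edgeR adjusted p = 0.0539 to 0.0809).

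The other 4 genes of this role did not pass. krt92, a keratin, was 288, 290 and 197 CPM in knockout pools and 289, 322 and 296 CPM in control pools, and the tight junction gene cldn15la was 61.5, 58.8 and 46.6 CPM in knockout pools and 56.1, 72.3 and 62.1 CPM in control pools. Both overlapped, with log2 differences of −0.23 (95% interval −0.56 to 0.10, edgeR adjusted p = 0.513) and −0.19 (−0.49 to 0.11, adjusted p = 0.555). cldn15a, another claudin, stood at −0.22 (95% interval −0.47 to 0.04, edgeR adjusted p = 0.414). cdx1b, a homeobox transcription factor of the intestinal epithelium, was 20.7, 33.3 and 27.1 CPM in knockout pools and 36.7, 35.5 and 32.4 CPM in control pools. Knockout pool 2 overlapped the controls, and the log2 difference of −0.37 did not pass (95% interval −0.71 to −0.02, edgeR adjusted p = 0.286). The structure genes that passed were thus those of villin and the L6 family, and whether they differ from the claudins and the keratin was not tested.

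The protein-uptake genes of lysosome-rich enterocytes gave 0 calls among 6 genes with edgeR and limma-voom and 1 with DESeq2, and 3 had an unadjusted p under 0.05. CUBN, the multiligand receptor cubilin, was 13.0, 26.9 and 26.1 CPM in knockout pools and 42.3, 35.9 and 29.1 CPM in control pools. The groups did not overlap, although knockout pools 2 and 3 lay close to control pool 3. The log2 difference was −0.70 (95% interval −1.23 to −0.17), which did not pass with edgeR (adjusted p = 0.168) and passed with DESeq2 (adjusted p = 0.0346). lrp2b, a megalin-type receptor, was 5.70, 14.2 and 7.41 CPM in knockout pools and 18.5, 15.4 and 11.4 CPM in control pools. Knockout pool 2 overlapped the controls, and the log2 difference of −0.73 (95% interval −1.38 to −0.08, edgeR adjusted p = 0.253) became −1.20 without that pool and passed (adjusted p = 0.0158). CUBN and lrp2b thus had estimates near that of mep1a.2, with wider intervals.

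The partners of cubilin stood closer to 0. amn, the membrane anchor amnionless, was 6.69, 7.37 and 4.78 CPM in knockout pools and 6.65, 6.28 and 6.99 CPM in control pools, with a log2 difference of −0.08 (95% interval −0.46 to 0.30, edgeR adjusted p = 0.867). dab2 (ENSDARG00000031761), the clathrin adaptor, was 22.8, 37.6 and 28.1 CPM in knockout pools and 40.5, 43.3 and 34.3 CPM in control pools, with overlap and a log2 difference of −0.42 (95% interval −0.79 to −0.04, edgeR adjusted p = 0.263). The second gene of that symbol, DAB2 (ENSDARG00000053091), stood at 35.4 ± 2.49 CPM in knockout pools and 35.3 ± 3.53 CPM in control pools. Its log2 difference rounded to 0.00 (95% interval −0.24 to 0.25, edgeR adjusted p = 0.992). LGMN, the lysosomal protease legumain, was 457, 498 and 437 CPM in knockout pools and 364, 531 and 477 CPM in control pools, with full overlap and a log2 difference of 0.02 (95% interval −0.30 to 0.34, edgeR adjusted p = 0.965). A fall of 1 on the log2 scale, as found for villin, lies outside the intervals of amn, both dab2 genes and LGMN, and inside those of CUBN and lrp2b.

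Cubilin, amnionless, Dab2 and megalin also work in the kidney tubule, which whole larvae contain. Of 12 tested pronephros markers, 0 passed in either direction with edgeR, DESeq2 or limma-voom, and 2 were lower at an unadjusted p under 0.05. With edgeR 4.01% of all tested genes were called, so 0 of 12 is near that share. The summed level of these markers was 289 to 327 CPM in knockout pools and 343 to 362 CPM in control pools, without overlap, and none of the 12 was at 0. Most of that sum is CDH17, at 185 CPM on average in knockout pools and 219 CPM in control pools (edgeR adjusted p = 0.332). The part of the kidney in the values of the uptake genes was not tested.

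Summed by role, the hydrolases stood lowest relative to the controls, at 391 ± 121 CPM in knockout pools and 1139 ± 257 CPM in control pools (SD, n = 3 each), a log2 ratio of −1.54 that chia.2 dominates. Transporters summed to 102 ± 22.6 CPM in knockout pools and 221 ± 19.2 CPM in control pools (log2 ratio −1.12). The ratios were −0.78 for lipid genes, −0.69 for peptidases and −0.64 for structure genes, and in all 5 of these roles the knockout sums lay below the control sums. Protein-uptake genes summed to 566 ± 46.5 CPM in knockout pools and 590 ± 76.8 CPM in control pools, a log2 ratio of −0.06 with overlap. Most of that sum is LGMN. Without it, the other 5 uptake genes summed to 80.8, 122 and 104 CPM in knockout pools and 147, 134 and 115 CPM in control pools, a log2 ratio of −0.37, with knockout pool 2 above control pool 3. The difference between roles was not tested, since the members were chosen and grouped with earlier results of these data known.

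**Figure D3:**
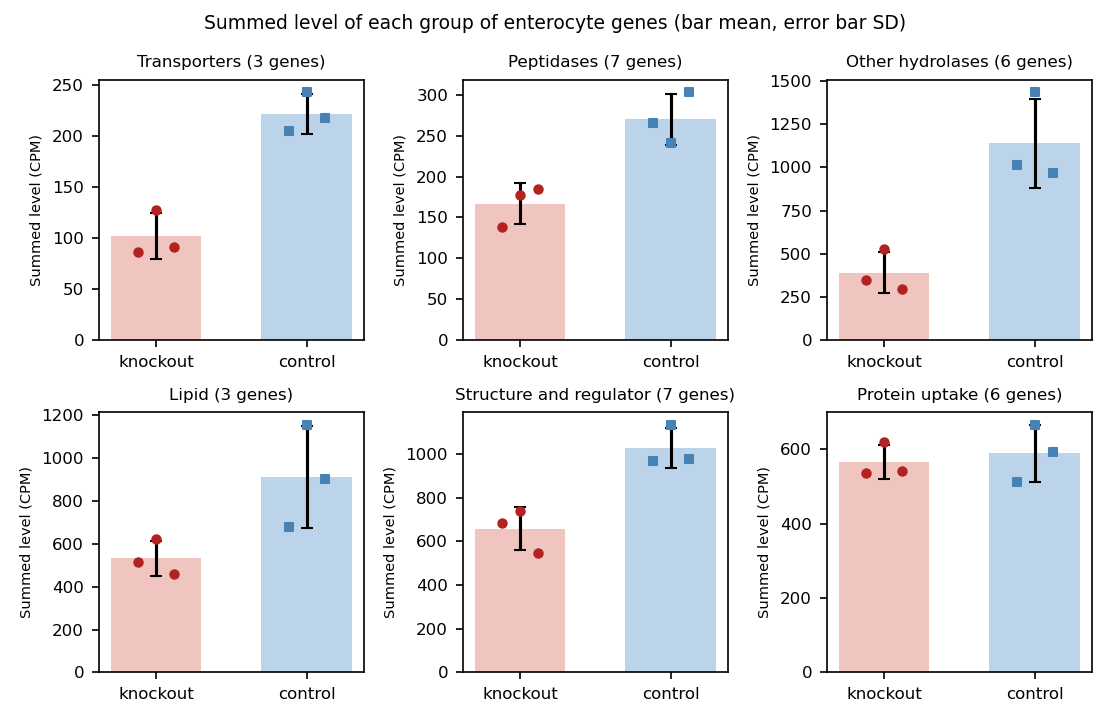
Summed level in CPM of the genes of each role, with knockout left of control; bars are means, error bars the SD and points the 3 pools of each group. The axes start at 0 and differ between panels. The points of the protein-uptake panel overlap, while in the other 5 panels all knockout points lie below the control points.

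Other genes of the brush border were taken from lists by function. By the edgeR rule 2.54% of all tested genes were lower and 1.47% higher. Of 10 further microvillus and terminal web genes, 4 fell and 0 rose with edgeR, and 1 had an unadjusted p under 0.05 on the higher side. myo7bb, a myosin of the links between microvillus tips, was 24.0, 32.3 and 26.8 CPM in knockout pools and 57.3, 63.4 and 64.5 CPM in control pools (log2 fold change −1.16, edgeR adjusted p = 0.000369). The scaffold gene pdzk1 and the actin-bundling gene ESPN fell by 0.77 and 0.63 on the log2 scale (edgeR adjusted p = 0.00743 and 0.0144), and ESPN missed the threshold without knockout pool 2 (0.0683) or control pool 3 (0.0688). The fourth was PLS1, which also codes for an actin bundler, at −0.58 (edgeR adjusted p = 0.0375). The PLS1 call was kept without control pool 1 and lost when any other pool was left out (edgeR adjusted p = 0.0545 to 0.174). Upper-quartile scaling (edgeR adjusted p = 0.0631) and the replicate number as a block (0.0887) lost it too. USH1C, the scaffold harmonin that binds the tip-link myosin, was higher in every knockout pool, at 26.2, 37.9 and 28.9 CPM against 22.9, 22.5 and 18.4 CPM in control pools. It did not pass with edgeR (log2 difference 0.54, adjusted p = 0.0815), and the list had 1 gene called higher with DESeq2, when knockout pool 1 was left out, and under upper-quartile scaling, and 0 with limma-voom. Without control pool 3 the number that fell was 2.

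Of 13 further transporter genes 2 fell and 0 rose, with 0 higher at an unadjusted p under 0.05 and 0 with DESeq2 or limma-voom. With edgeR 2.54% of all tested genes fell and 1.47% rose, so 0 higher of 13 is near that share. SLC2A2, the glucose transporter of the basal membrane, which liver cells also use, was 21.6, 22 and 17.8 CPM in knockout pools and 39.1, 51.5 and 41.3 CPM in control pools (log2 fold change −1.10, edgeR adjusted p = 0.000823). SLC10A2, the ileal bile acid transporter, stood at −0.60 (edgeR adjusted p = 0.0484), a call lost in each of the 6 fits that left out a pool (edgeR adjusted p = 0.0643 to 0.19) and with DESeq2 (0.0676). Upper-quartile scaling, no filter and the replicate number as a block also lost the SLC10A2 call (edgeR adjusted p = 0.055 to 0.0916). Of 13 further digestive enzyme genes 2 fell and 1 rose, with 3 lower and 3 higher at an unadjusted p under 0.05 and a list median of −0.002 on the log2 scale. XPNPEP2, a membrane aminopeptidase, was 6.48, 5.75 and 6.52 CPM in knockout pools and 14.8, 20.2 and 15.3 CPM in control pools (log2 fold change −1.42, edgeR adjusted p = 0.000305). alp3, an alkaline phosphatase, fell by 1.24 on the log2 scale (edgeR adjusted p = 0.012). The gene that rose was ggt1b, a gamma-glutamyltransferase, at 24.5 ± 1.31 CPM in knockout pools and 17.2 ± 2.36 CPM in control pools (log2 fold change 0.51, edgeR adjusted p = 0.0421). Without control pool 3 this call was kept, and it was lost when any other pool was left out (edgeR adjusted p = 0.0557 to 0.16). The ggt1b call was also lost with the replicate number as a block (edgeR adjusted p = 0.0669).

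Among 22 further genes of fat absorption 8 fell and 0 rose with edgeR, DESeq2 or limma-voom, and 2 were higher at an unadjusted p under 0.05. Over all tested genes edgeR called 2.54% lower and 1.47% higher. NPC1L1, which takes up cholesterol at the brush border, was 6.95, 18.3 and 9.46 CPM in knockout pools and 35, 51.6 and 37.1 CPM in control pools (log2 fold change −1.83, SE 0.29, edgeR adjusted p = 0.00468). Of the apolipoprotein B genes, apobb.2 stood at 1.69 ± 0.838 CPM in knockout pools and 10.7 ± 4.44 CPM in control pools and fell by 2.66 on the log2 scale (edgeR adjusted p = 0.00236). apobb.1 stood at 5570.4 ± 655 CPM in knockout pools and 5510.1 ± 988 CPM in control pools, with a log2 difference of 0.02 (95% interval −0.34 to 0.37, edgeR adjusted p = 0.973). apobb.1 holds most of the summed level of the list, whose log2 ratio was −0.004, and reads of such copies may be split between them. creb3l3b, a transcription factor of lipid metabolism, fell by 0.84 on the log2 scale (edgeR adjusted p = 0.00596). MTTP, the microsomal triglyceride transfer protein of lipoprotein assembly, was at 132 ± 8.71 CPM in knockout pools and 140 ± 12.6 CPM in control pools, and did not pass (edgeR adjusted p = 0.791). The number that fell was 5 without knockout pool 2, control pool 2 or control pool 3. Several of these genes are also active in liver, whose markers fell as well (14 of 19 tested hepatocyte genes lower, summed level 2644 to 3685 CPM in knockout pools and 7047 to 8243 CPM in control pools). Their part in the lipid genes, and in SLC2A2, RGN and HNF4A, which liver also uses, was not tested. The part of liver in the levels of the set itself, TM4SF4 and TM4SF5 included, was not tested either.

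In the lysosome, 1 of 33 tested genes rose and 1 fell with edgeR, where 1.47% of all tested genes rose and 2.54% fell. At an unadjusted p under 0.05, 9 of the list were higher and 3 lower, without a share of all genes to set them against. DESeq2 called 3 higher and 2 lower, upper-quartile scaling gave 3 higher and 1 lower, and limma-voom 1 in each direction. The summed level was 3704 to 4209 CPM in knockout pools and 3303 to 3473 CPM in control pools, without overlap. The gene with the highest level in that sum was ctsla, at 1212 ± 121 CPM in knockout pools and 928 ± 43.3 CPM in control pools. ctsla did not pass (edgeR adjusted p = 0.122), and 11 of the 33 tested genes had a negative log2 difference. CTSD, the protease cathepsin D, was 356, 392 and 348 CPM in knockout pools and 254, 252 and 256 CPM in control pools (log2 fold change 0.53, edgeR adjusted p = 0.0148), and ctsl.1, a cathepsin L gene, was 73.7, 130 and 97.9 CPM in knockout pools and 165, 257 and 221 CPM in control pools (log2 fold change −1.09, edgeR adjusted p = 0.0145). Without knockout pool 2, control pool 2 or control pool 3 CTSD did not pass (edgeR adjusted p = 0.0784 to 0.101), and without control pool 3 ctsl.1 did not (0.053). CTSD also missed the threshold with the replicate number as a block (edgeR adjusted p = 0.055). The median of the list was 0.16 on the log2 scale, against −0.25 for the uptake genes and −0.01 over all tested genes. Of 12 further endocytic genes 1 fell, RGN, regucalcin, a calcium-binding protein best known from liver, and 0 rose (1 at an unadjusted p under 0.05, 0 with DESeq2 or limma-voom). RGN did not pass without knockout pool 2 or 3 or control pool 2 or 3 (edgeR adjusted p = 0.08 to 0.105).

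Of 23 genes of intestinal transcription factors 3 fell and 0 rose, with 0 higher at an unadjusted p under 0.05 and 0 with DESeq2 or limma-voom. The edgeR shares over all tested genes were 2.54% lower and 1.47% higher. HNF4A, a nuclear receptor of intestine and liver, was 22.9, 24.1 and 23.4 CPM in knockout pools and 36.4, 41.6 and 37.5 CPM in control pools (log2 fold change −0.71, SE 0.10, edgeR adjusted p = 0.00217). GATA5, a zinc finger factor of endoderm and heart, and MAF (ENSDARG00000015890), a leucine zipper factor, stood at −0.69 and −0.52 (edgeR adjusted p = 0.0306 and 0.0301). Their calls depended on the pools, and without knockout pool 1, control pool 1 or control pool 3 HNF4A alone of the list passed. MAF also missed the threshold with the replicate number as a block (edgeR adjusted p = 0.0852). HNF4G, the paralog found mainly in intestine, was at −0.40 without passing (edgeR adjusted p = 0.318).

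**Figure D4:**
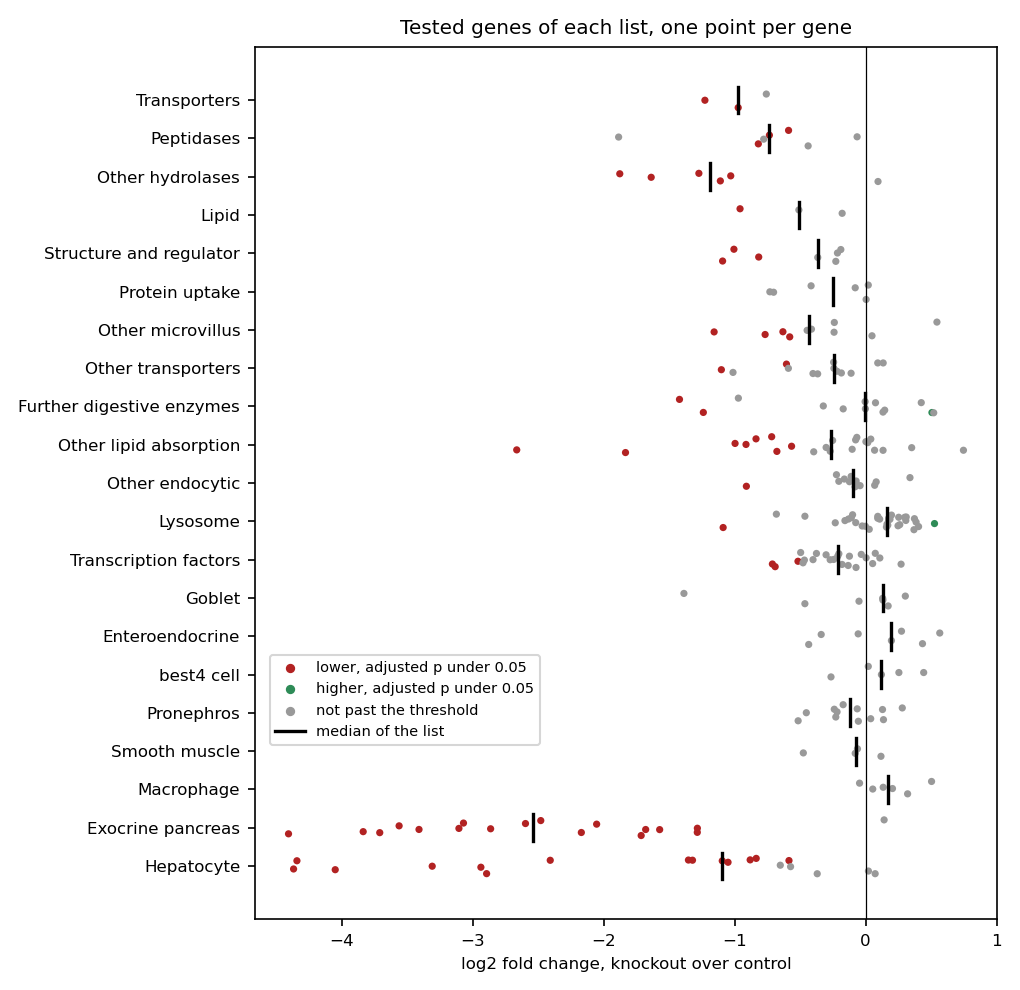
Log2 fold change, knockout over control, of every tested gene in the 6 roles of the set, in the further lists and in lists of cell type markers; the black line is the median of each list. The medians of the goblet, enteroendocrine and best4 lists lie between 0.12 and 0.20 and that of smooth muscle at −0.07, those of the exocrine pancreas and hepatocyte lists at −2.54 and −1.09.

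Markers of other cell types of the gut wall gave no calls with edgeR: 0 of 7 tested goblet genes (2 lower at an unadjusted p under 0.05), 0 of 7 enteroendocrine genes (1 lower and 1 higher), 0 of 5 best4 genes (0) and 0 of 4 smooth muscle genes (1 lower). DESeq2 called 1 goblet and 1 smooth muscle gene lower, and limma-voom 0 in these lists. By the edgeR rule 4.01% of all tested genes were called. In lists as short as these, 0 calls is near that share and does not show that these cells were unchanged. RNA came from whole bodies, and the part of cells outside the gut in these markers and their sums was not tested. Of the symbols written, 8 of 10 goblet, 8 of 16 enteroendocrine, 5 of 5 best4 and 3 of 8 smooth muscle were found. Goblet markers summed to 352 to 510 CPM in knockout pools and 334 to 481 CPM in control pools, enteroendocrine markers to 127 to 139 CPM in knockout pools and 145 to 175 CPM in control pools. Most of the enteroendocrine sum is NEUROD1, at 106 CPM on average in knockout pools and 135 CPM in control pools. Only 3 of the 7 tested enteroendocrine genes had a negative log2 difference, and the list median was 0.20. The best4 markers summed to 67.5 to 86.5 CPM in knockout pools and 84.3 to 107 CPM in control pools. Most of the best4 sum is notch2 (66.9 CPM on average in knockout pools and 80.4 CPM in control pools), the only 1 of the 5 with a negative log2 difference. Smooth muscle markers summed to 262 to 319 CPM in knockout pools and 304 to 369 CPM in control pools. The difference between these sums comes from acta2 (122 CPM on average in knockout pools and 169 CPM in control pools). The other genes of that list had log2 differences between −0.08 and 0.12. Macrophages, which share lysosomal genes, had 0 of 6 markers called by edgeR, DESeq2 or limma-voom (1 higher at an unadjusted p under 0.05), with sums of 139 to 196 CPM in knockout pools and 166 to 182 CPM in control pools. The exocrine pancreas, which lies along the gut and whose enzymes act in its lumen, had 17 of 18 tested markers lower, with sums of 1610 to 1898 CPM in knockout pools and 5187 to 8937 CPM in control pools. How much of the change in enterocyte genes goes with the amount of gut tissue per larva was not tested.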

How the data were processed

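Poly(A)-selected, non-stranded libraries of 6 pools were sequenced as paired 100-base reads, per the labels' protocols. The authors deposited unscaled counts for each gene as whole numbers. The submitters' processing notes name GRCz11 and the tools DESeq2, FastQC, Salmon and Trim Galore, whose versions and roles are not given in the sources used here. A table of identifiers gave symbols for 23598 of 25859 genes.

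Counts were kept by filterByExpr (0.0516% of counts removed), scaled by TMM and compared with edgeR 4.0.16 (R 4.3.3), genotype as the only term, over all 21602 genes, Benjamini-Hochberg threshold 0.05. The SE of a log2 fold change was its size divided by the root of its F statistic. In data simulated for this comparison, 81 of 100 genes changed by 1 and 99 of 100 changed by 2 on the log2 scale were recovered among 21470 tested, and 18 of the 198 calls were false. The share of false calls was thus above the nominal 0.05. In all 200 genes were changed, fewer than the 866 called in the data, so recovery and false calls may differ there. The changed genes excluded those of low counts, and each gene was simulated independently. Recovery of genes with few reads, and shifts shared by genes within a pool, are thus not covered. No replicate pair agreed within sampling noise (chi-square per degree of freedom 7.22 to 20.6).

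Every gene of the set was described, and from each other list up to 3 genes with the smallest p; other genes named from those lists, and genes related by symbol, were chosen after their values were seen. The members and lists were chosen with earlier results of these data known. The further lists held 289 symbols, 87 of which matched no gene; aggrecan was removed from a list as an error, and promoter motifs were not examined. Alternatives were RLE and upper-quartile scaling, no filter, 1 CPM in 3 pools, an adjusted p of 0.01, DESeq2 1.42.0, limma-voom (limma 3.58.1), the replicate number as a block, and each pool left out.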

Additional observations from a re-analysis of the deposited data

How the results depend on the processing

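The number of lower enterocyte genes was 13 to 16 under other scalings, filters and tools and under the replicate block, and 9 to 15 when a pool was left out. At an adjusted p of 0.01 it was 7, with 444 of all tested genes called, 0 peptidases, 3 hydrolases and 0 lipid genes. When a pool was left out, 549 to 981 of all tested genes were called, with 0 to 4 peptidases, 0 to 1 lipid genes and 0 to 1 protein-uptake genes lower, and DESeq2 called 1 protein-uptake gene; the cause was not tested. The direction of 4 genes that did not pass turned in fits that left out a pool, with log2 differences of −0.036 to 0.10 for DAB2, −0.11 to 0.15 for LGMN, −0.20 to 0.10 for amn and −0.21 to 0.05 for tmprss15. Over 448 refitted values of single genes, 392 kept direction and side of the threshold, 35 lost the call, 11 gained it and 10 turned. The median log2 fold change of the set stayed between −0.84 and −0.56. The deviations of same-numbered pools from their group means correlated at −0.20, 0.10 and −0.07 for replicates 1, 2 and 3. By these deviations knockout pools 1, 2 and 3 were closest to control pools 3, 2 and 1. So few values cannot decide whether the numbers pair the pools. With the replicate block 16 genes were lower, MEP1B (ENSDARG00000037533) and slc34a2b in addition. Upper-quartile scaling moved the median of all genes by 0.05 on the log2 scale.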

Other observations

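Knockout pool 2 was the highest of the knockout pools in 26 of 32 genes (81.2%), against 30.2% of all tested genes, and knockout pool 3 was the lowest in 21 of 32 (65.6%), against 31% of all tested genes. Control pool 2 was the highest control pool in 19 of 32 (59.4%), against 32.1%. The genes of a set move together within a pool, so these shares describe 6 libraries and carry no test.

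The share of each role in the summed level of the 32 genes also differed between groups. That summed level was 2416 ± 358 CPM in knockout pools and 4161 ± 638 CPM in control pools (SD, n = 3 each). The sum of the protein-uptake genes itself did not rise (log2 ratio −0.06), so their larger share reflects the lower total. Protein-uptake genes made up 23.2%, 22% and 25.5% of the sum in knockout pools 1, 2 and 3 and 14.0%, 13.7% and 15.0% in control pools 1, 2 and 3. Hydrolases made up 15.1%, 18.7% and 14.0% in knockout pools and 27.8%, 29.4% and 24.4% in control pools. LGMN carries most of the first share and chia.2 most of the second. Lipid genes held 22% on average in knockout pools and 21.7% in control pools.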
